A study of Rattus norvegicus with 5 samples.

Results

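The respiratory chain of mitochondria was followed on the arrays through the genes whose name in the files, leaving out a suffix for predicted genes, begins with Nduf, Uqcr, Atp5, Sdh and a letter from a to d, or Cox and a digit from 4 to 8. This rule uses names only and found 70 genes with 82 probes, out of 35655 genes or transcripts with 41012 probes. By their descriptions, 64 of the 70 are subunits of the 5 complexes. The others share the start of a name: Ndufaf1, an assembly factor of complex I; Atp5s, now called Dmac2l; Cox4nb, the neighbour of Cox4i1 that is now called Emc8; Cox7a2l, a factor of supercomplex assembly; Cox6c1, a pseudogene; and a probe under the name Cox6b that the files describe as uroplakin Ia. The samples were Fao cells, a line from a rat liver tumour with many hepatocyte traits, which had grown for 2 days in medium with 10% serum and had then been starved for 16 h with the glucocorticoid dexamethasone at 10 nM. Insulin at 10 nM was then given for 0, 15, 30, 45 or 60 min, and each time had 1 array and no replicate, so no single time carries a p-value.

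The respiratory chain passes electrons from NADH (complex I, Nduf genes) and succinate (complex II, Sdh genes) through complex III (Uqcr genes) to oxygen at complex IV (Cox genes), and complex V, the ATP synthase (Atp5 genes), uses the proton gradient so built to make ATP. Most subunits are encoded in the nucleus, and a small set in mitochondrial DNA. Their nuclear genes are known to share binding sites for NRF1 and for the ETS factor GABP (also called NRF2) in their promoters.

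Of the 70 genes, 66 were well above background on all 5 arrays, and 51 of these stayed within 0.322 log2 units of their 0 min level at all 4 times (77.3%), against 77.4% of the 1671 brightest genes, where most members lie, and 59.8% of the 16708 genes detected on all 5 arrays. The widest difference was that of Ndufs1, the largest core subunit of complex I, at -0.76 log2 units at 60 min, and no member reached 2-fold at any time. A level here is the log2 ratio of a spot's signal to the 75th percentile of all signals on that array, and a change is the level at a time minus that at 0 min.

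Promoters are shown first for members that differed most or had the lowest trend p, and for examples of motif matches. The sequences are RefSeq's, on build GRCr8, and cover the 250 bases before the annotated start. They were found for 56 of the 64 subunits. Capitals mark matches on either strand to 3 sets of letters, GCGCANGCG for NRF1, CCGGAAG for ETS factors and AANATGGCG for YY1. Ndufs1 (chr9:72073606-72073855, minus strand) had the lowest change and holds an ETS and a YY1 match. Ndufa7 (chr7:15311196-15311445, plus strand), an accessory subunit of complex I with the highest change, holds none of the 3. Atp5po, named Atp5o in the files (chr11:44657484-44657733, minus strand), had the lowest trend p and holds 1 stretch that matches the NRF1 letters on both strands. Sdha (chr1:30764303-30764552, plus strand) holds 2 separate NRF1 matches and Cox8a (chr1:213833624-213833873, minus strand) holds 2 ETS matches. Other promoters, not shown, hold as many matches or more. Ndufa11 has 4 NRF1 matches, some of them overlapping, Uqcrc1 has 2 NRF1 matches and Uqcrc2 has 2 ETS matches.
Ndufs1: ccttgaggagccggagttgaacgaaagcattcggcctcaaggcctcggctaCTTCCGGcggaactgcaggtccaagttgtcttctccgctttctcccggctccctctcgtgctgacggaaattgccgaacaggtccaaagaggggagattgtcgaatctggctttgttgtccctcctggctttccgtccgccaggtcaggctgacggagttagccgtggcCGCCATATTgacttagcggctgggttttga
Ndufa7: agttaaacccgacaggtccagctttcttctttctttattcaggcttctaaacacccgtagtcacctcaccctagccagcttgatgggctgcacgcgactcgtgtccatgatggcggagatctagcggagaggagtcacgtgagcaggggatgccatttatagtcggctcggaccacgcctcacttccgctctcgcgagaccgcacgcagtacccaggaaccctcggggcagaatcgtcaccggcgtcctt
Atp5po: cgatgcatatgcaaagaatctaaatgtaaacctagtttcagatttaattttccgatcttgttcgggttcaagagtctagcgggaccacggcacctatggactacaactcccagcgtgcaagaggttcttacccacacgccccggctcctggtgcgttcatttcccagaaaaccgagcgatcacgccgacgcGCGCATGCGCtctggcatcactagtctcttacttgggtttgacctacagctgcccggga
Sdha: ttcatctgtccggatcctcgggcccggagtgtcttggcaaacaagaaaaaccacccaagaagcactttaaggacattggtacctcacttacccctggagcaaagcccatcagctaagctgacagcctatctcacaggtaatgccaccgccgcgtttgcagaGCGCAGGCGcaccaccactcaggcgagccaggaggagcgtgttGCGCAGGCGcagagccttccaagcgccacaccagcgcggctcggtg
Cox8a: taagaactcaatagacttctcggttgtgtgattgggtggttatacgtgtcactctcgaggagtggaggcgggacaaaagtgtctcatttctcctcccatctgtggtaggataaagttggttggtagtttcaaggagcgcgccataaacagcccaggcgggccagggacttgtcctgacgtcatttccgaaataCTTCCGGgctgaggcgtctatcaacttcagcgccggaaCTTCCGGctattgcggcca

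Over the 56 promoters, the NRF1 letters were found in 13 (23.2%), against 7.2% of 19005 promoters of protein-coding genes. The ETS letters were found in 16 (28.6%), against 9.52% of all promoters, and the YY1 letters in 2 (3.57%), against 1.64%. The letters TATAAA were found in 4 (7.14%), against 12.3% of all promoters. Median GC content was 56.4% in the subunit promoters and 54.8% in all. A match is a description of letters, not a binding site. Among the subunits with a measured change at 60 min, the 26 with any of the NRF1, ETS and YY1 letters had a median of 0.12 log2 units (from -0.76 to 0.40), and the 27 with none had 0.01 (from -0.34 to 0.52), so the ranges overlapped widely. At 30 min the order was the other way, with medians of 0.02 and 0.07.

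**Figure D1:**
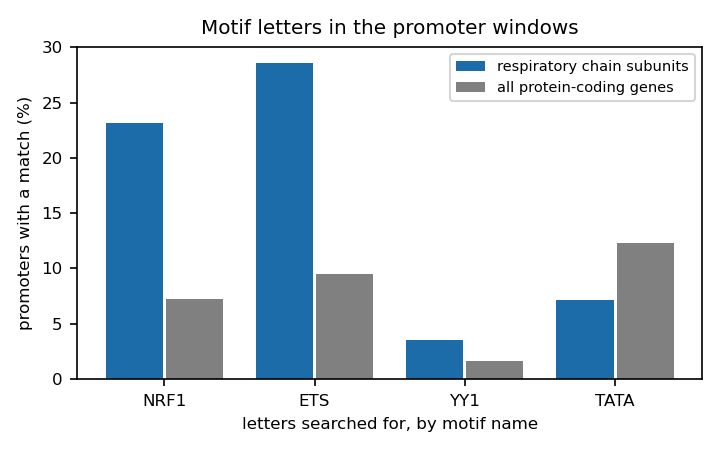
Share of promoters (%) that hold each set of letters in the 250 bases before the start, for 56 respiratory chain subunits (blue) and 19005 protein-coding genes (grey). The subunits' share was higher for the NRF1 letters (23.2% against 7.2%) and the ETS letters (28.6% against 9.52%), and lower for TATAAA (7.14% against 12.3%).

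Precision came from the arrays and not from replicates. Between 22069 and 24489 of 43379 spots were well above background, the 75th percentile of signal lay between 253.5 and 300.2 at 0 to 45 min, and it was 479.3 at 60 min. The first 4 times lay on slide 1, each at its own position in order of time, and the 60 min array lay on slide 2 with its own scan, so slide and time cannot be told apart at 60 min, nor position and time before it. Spots of a repeated probe had a median SD of 0.12 to 0.14 log2 units within an array. If spots varied independently between arrays, a change would have a technical SD of 0.18 to 0.19. The members' changes had a smaller SD at 15, 30 and 45 min (0.13, 0.14 and 0.12), so that figure is too wide for them. Labelled control transcripts offer a second scale: the 7 that were well above background at every spot had median changes of 0.15, 0.14, 0.19 and 0.29 log2 units at 15, 30, 45 and 60 min, and at 60 min they ran from 0.06 to 0.34. Hepatocyte markers were well above background on all 5 arrays in 14 of 14 cases, Alb and Ttr among them. Of the macrophage, endothelial, stellate and fibroblast, and biliary markers found, 1 of 3 of each type was too: Cd68, Cdh5, Col1a1 and Krt19. In RNA from a whole dish, fewer cells with a transcript and less of it per cell cannot be told apart.

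Respiratory chain probes were among the brightest on the arrays: 46 of 66 members lay among the 1671 brightest of the 16708 genes that were well above background throughout. Spot signal depends on the probe as well as the transcript, so this describes precision and ranks no gene by abundance. The members' changes had an SD of 0.13, 0.14, 0.12 and 0.24 log2 units at 15, 30, 45 and 60 min, against 0.23, 0.24, 0.25 and 0.34 over all genes. Against the 1671 brightest genes, whose SDs were 0.15, 0.18, 0.18 and 0.26, the gap was small. The median range of a member over the first 4 arrays was 0.16 log2 units, against 0.17 in the 1671 brightest genes and 0.23 over all genes.

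The median change of the members was 0.04, 0.05, 0.07 and 0.10 log2 units at 15, 30, 45 and 60 min. That of all genes was 0.03, 0.02, 0.03 and 0.02, and that of the 1671 brightest genes 0.03, 0.04, 0.05 and 0.05. Set against the control transcripts in place of the 75th percentile, the members' median would read -0.11, -0.08, -0.12 and -0.19, so the sign of this small shift depends on the scale, and the controls themselves spread by more than the shift. Changes above 0 were seen in 47, 41, 45 and 39 of 66 members, where 57.1%, 55.4%, 55.5% and 52.7% of all genes were above 0. Among the 1671 brightest genes the shares were 59.7%, 61.2%, 64.7% and 56.0%.

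At 15 min 1 member was at least 0.322 log2 units higher and 0 were lower, where 6.49% and 3.98% of all genes were. At 30 min 2 were higher and 0 lower, against 6.85% and 4.91%. At 45 min 0 were on either side, against 7.63% and 5.38%. At 60 min 10 were higher and 2 lower, against 14.0% and 14.1% of all genes. Bright probes vary less: of the 1671 brightest genes, 1.2% were higher and 0.958% lower at 15 min, and 10.4% higher and 7.66% lower at 60 min. At 60 min the count of lower members was 4 or 6 under some alternative settings and the count of higher ones 6 or 17. Not one member was 2-fold higher or lower at 15, 30, 45 or 60 min, where 0.11%, 0.233%, 0.325% and 0.656% of all genes were higher and 0.278%, 0.21%, 0.267% and 0.684% were lower. Without the names that are no subunits, the counts at 60 min were 8 higher and 2 lower of 61.

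**Figure D2:**
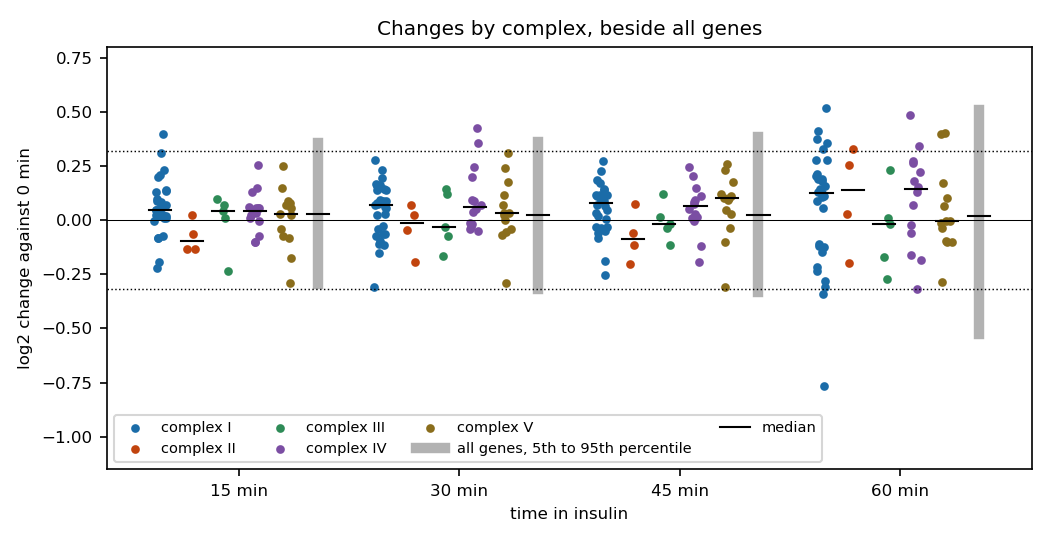
Log2 change against 0 min of the 66 measured members by complex (points, with their median as a bar) at 15, 30, 45 and 60 min, with the 5th to 95th percentile of all genes (grey bar). Dotted lines mark 0.322 log2 units either way. At 45 min all 66 members lie between the lines, and at 60 min 12 lie outside, with Ndufs1 lowest at -0.76.

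The 12 members past the threshold at 60 min were all within it at 15, 30 and 45 min. The 60 min array, alone on its slide, was above the other 4 arrays for 29 of the 66 members and below them for 20, where 35.2% and 33.7% of all genes were above and below. The part of the slide in these differences was not tested. Over the 4 arrays of slide 1, 63 of 66 members had a range under 0.322 log2 units. The same count was not made over other genes. The median range there was 0.16 for the members and 0.17 for the 1671 brightest genes, so the count is not read as a trait of the members. The 3 members that passed the threshold on slide 1 were Ndufs7 at 15 min and Cox8h and Cox6c1 at 30 min.

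The trend over time, fitted with limma as a slope over the 5 arrays and adjusted over 20506 genes, gave an adjusted p under 0.05 for 0 members and 0 genes (0.0% higher and 0.0% lower). At an unadjusted p under 0.05, 5.37% of all genes had an upward and 3.36% a downward slope, and of the 66 members 2 had an upward and 0 a downward one. These were Atp5o, a stalk subunit of the ATP synthase (limma slope 0.38 ± 0.14 log2 units per 60 min, SE, unadjusted p = 0.037, adjusted p = 0.56), and Ndufa7 (limma slope 0.43 ± 0.17, SE, unadjusted p = 0.047, adjusted p = 0.56). The unadjusted count was 0 without the 45 min or the 60 min array. With the detected-probe percentile, quantile normalization or normexp background it was also 0. It was 1 without the 0 min or the 15 min array or with time on a log2 scale, and 2 with the mean over probes. Without the 30 min array or with only genes detected on all 5 arrays it was 3, and with no filter on dim probes 5. Over all genes, the count at an adjusted p under 0.05 by limma also moved. It was 4 with only genes detected on all 5 arrays, 1 with no filter on dim probes and 0 in the other alternatives.

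**Figure D3:**
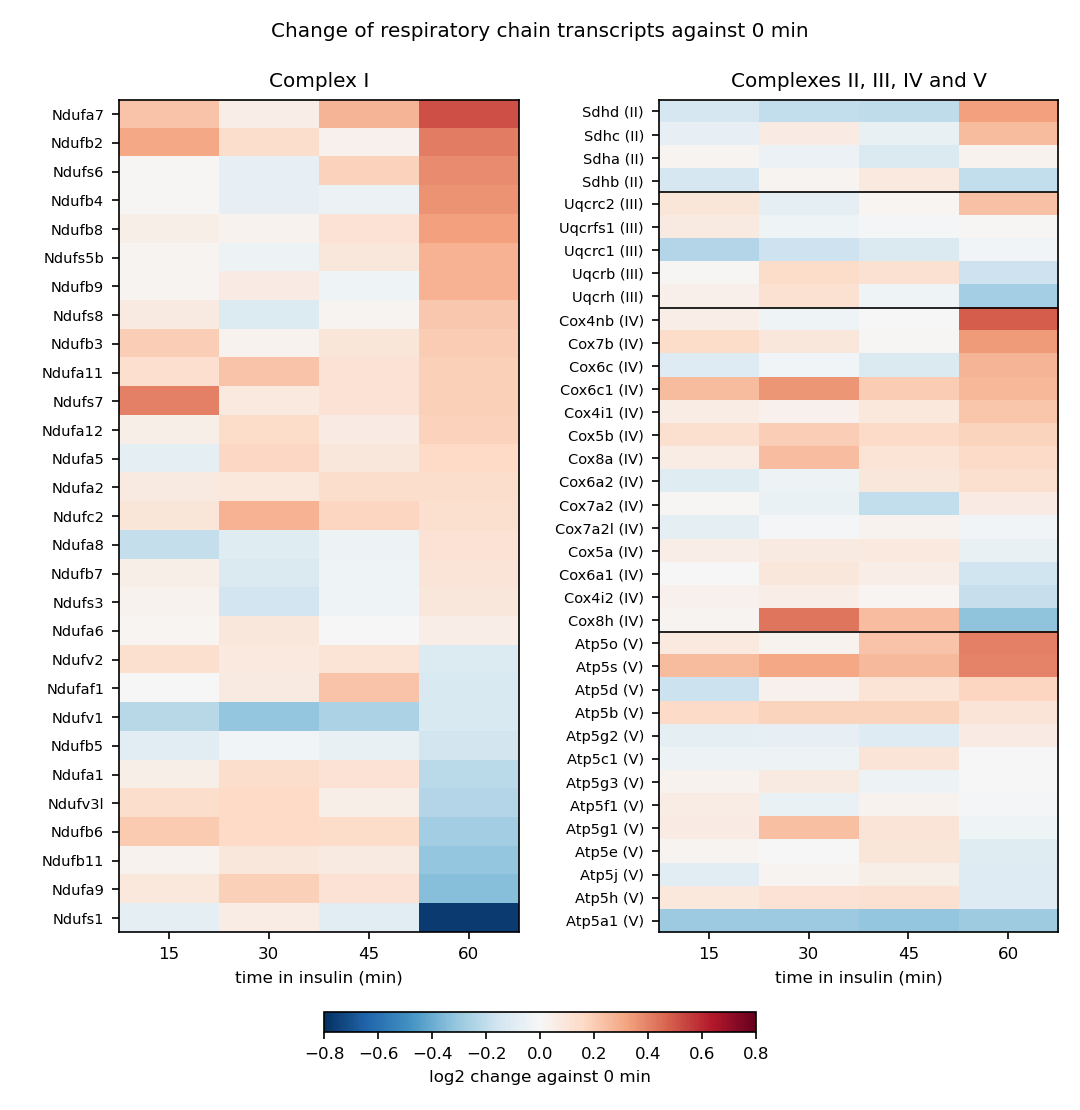
Log2 change against 0 min (colour, blue lower and red higher) of 65 measured members, in rows by complex and ordered by the 60 min change, at 15, 30, 45 and 60 min (columns). Most cells are pale; the darkest is Ndufs1 at 60 min (-0.76), and Atp5a1 is near -0.29 at all 4 times.

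Complex I had 31 names, 30 of them measured, with a median change of 0.05, 0.07, 0.08 and 0.13 log2 units at the 4 times. Its core subunits encoded in the nucleus carry the flavin and the iron-sulfur clusters of the electron path. Ndufs1, which holds iron-sulfur clusters of the electron input arm, had levels of 3.52, 3.45, 3.58, 3.44 and 2.76 at 0, 15, 30, 45 and 60 min. The first 4 arrays lie within 0.15 log2 units of one another, and the 60 min array is 0.68 below the lowest of them. Its single probe lies on chromosome 9 at chr9:61811846-61811905 on the minus strand of build rn4. The processed signal before scaling was 3239 at 60 min and 3446 at 0 min, while the 75th percentile was 479.3 at 60 min and 300.2 at 0 min. The spot itself was thus about as bright on both arrays, while the percentile was higher at 60 min. The other core subunits named here were brighter at 60 min before scaling, Ndufs3 at 18248 against 10742 and Ndufv1 at 5649 against 3856. The reason for the difference was not tested. The trend of Ndufs1 did not pass (limma slope -0.62 ± 0.28 log2 units per 60 min, SE, unadjusted p = 0.073, adjusted p = 0.56).

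The other core subunits named here did not share this pattern. Ndufs7, which holds the last cluster before ubiquinone, had levels of 4.84, 5.24, 4.93, 4.96 and 5.04, so the 15 min array alone stood 0.40 above 0 min. Ndufv1, the flavin subunit that oxidises NADH, was lower at every later time, at 3.68, 3.46, 3.37, 3.43 and 3.56. Its probe was lowest at 30 min, where the change was -0.31. Ndufv2, its partner in the NADH-oxidising arm, had 6.53, 6.66, 6.61, 6.64 and 6.42, and the 5 values span 0.24. Ndufs3 and Ndufs8 had changes of 0.09 and 0.21 at 60 min, with Ndufs3 at -0.15 at 30 min. At 60 min Ndufs1 was the one core subunit past the threshold.

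**Figure D4:**
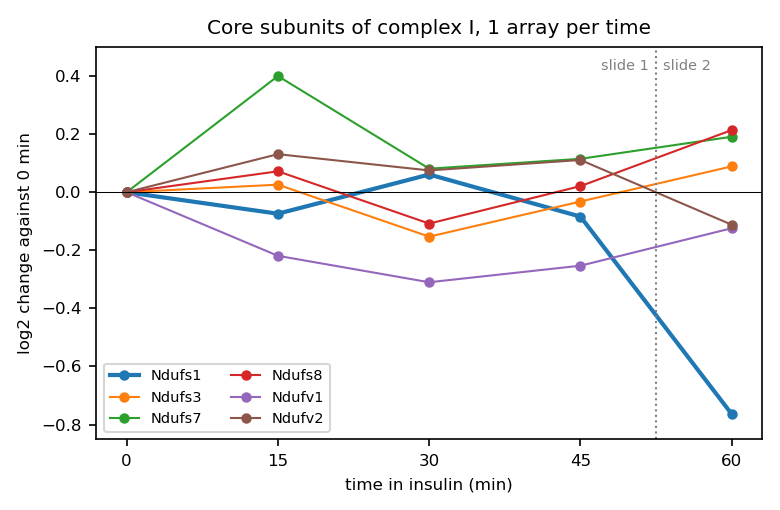
Log2 change against 0 min of nuclear core subunits of complex I over time in insulin (min), 1 array per time, with the border between slide 1 and slide 2 dotted. Ndufs1 is at -0.76 on the 60 min array, Ndufs7 at 0.40 on the 15 min array, and the others stay between -0.31 and 0.21.

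The accessory subunits of complex I surround this core. The highest change was that of Ndufa7, with levels of 0.23, 0.46, 0.29, 0.50 and 0.75, a change of 0.52 at 60 min, measured by 1 probe at chr7:16334437-16334496 (rn4, plus strand). Ndufb2, a subunit of the membrane arm, had 5.28, 5.59, 5.42, 5.31 and 5.69, so it was higher at 15 and 60 min but not at 45 min. Ndufs6, Ndufb4 and Ndufb8 were 0.38, 0.36 and 0.33 higher at 60 min, and at 45 min they were at 0.19, -0.05 and 0.11. In the other direction, Ndufa9, near the ubiquinone site, had 5.17, 5.26, 5.36, 5.29 and 4.83, which is 0.34 lower at 60 min after 3 values above 0 min. Ndufb11 and Ndufb6 stood at -0.31 and -0.28 at 60 min, just inside the threshold. Ndufa6 was the steadiest member, with all 5 levels within 0.09 log2 units. Accessory subunits of the same arm thus lay on both sides of 0 at 60 min. Ndufaf1, the assembly factor, differed by -0.12 at 60 min and 0.23 at 45 min.

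Complex II has 4 subunits, which oxidise succinate in the citric acid cycle, and its median change was -0.10, -0.01, -0.09 and 0.14. Sdhd, a membrane anchor, had levels of 4.70, 4.57, 4.50, 4.49 and 5.03. It was lower than at 0 min on the 3 later arrays of slide 1 and 0.33 higher on the 60 min array, a step of 0.53 from 45 to 60 min. The other anchor, Sdhc, stood at 0.26 at 60 min, and the iron-sulfur subunit Sdhb at -0.20. Sdha, the flavin subunit with 2 NRF1 matches in the promoter shown, had 6.44, 6.47, 6.40, 6.33 and 6.47, within 0.14 of one another.

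Complex III was measured through 5 names, with medians of 0.04, -0.03, -0.02 and -0.02 and no member past the threshold. Uqcrfs1, the Rieske iron-sulfur protein, had 5.36, 5.43, 5.33, 5.34 and 5.37, within 0.10. Uqcrc1, a core protein, had 1.77, 1.53, 1.60, 1.65 and 1.75, a change of -0.23 at 15 min, and its partner Uqcrc2 was 0.23 higher at 60 min. Uqcrh, the hinge protein, and Uqcrb stood at -0.27 and -0.17 at 60 min.

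Complex IV had 16 names, 14 of them measured, with medians of 0.04, 0.06, 0.06 and 0.14. Cox4i1, the widespread form of subunit 4, had 4.96, 5.02, 4.995, 5.04 and 5.18, and Cox4i2, the form known from lung, had 0.96, 0.99, 1.01, 0.97 and 0.77. Both stayed within 0.24 log2 units. Cox7b was 0.34 higher at 60 min and Cox6c 0.27 higher. Cox5a (-0.06), Cox5b (0.18), Cox7a2 (0.07), Cox8a (0.15) and Cox6a1 (-0.16) were all inside the threshold at that time. A second, less bright probe of Cox5b on the same strand was at -0.105. The muscle form Cox6a2 had levels of -0.74, -0.84, -0.78, -0.65 and -0.61. Of 3 muscle markers, Ckm and Actn2 were well above background on all 5 arrays and Myh7 on none. Cox8h, the muscle form of subunit 8 now called Cox8b, was 0.43 higher at 30 min and -0.32 at 60 min, but this rests on a dim probe with a raw signal of 37.5 to 53.1 that lies on the strand opposite the gene. The probe of Cox8h that matches the gene's RefSeq record was not well above background on any array. Cox6b2, the testis form, was also below that limit on all 5 arrays, as was the probe named Cox6b.

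2 names of complex IV that are no subunits were past the threshold. Cox4nb (Emc8), a part of a membrane protein complex of the endoplasmic reticulum that lies head to head with Cox4i1, had 3.47, 3.53, 3.44, 3.46 and 3.95, so it was 0.48 higher on the 60 min array and level before it. The pseudogene Cox6c1 was 0.36 higher at 30 min at a dim signal of 42.1 to 82.4. The supercomplex factor Cox7a2l had 5 levels within 0.10.

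Complex V had 14 names, 13 of them measured, with medians of 0.03, 0.03, 0.10 and -0.01. In its catalytic head, Atp5a1, the alpha subunit (Atp5f1a), had 6.24, 5.95, 5.95, 5.93 and 5.96, so all 4 later arrays lay 0.29 to 0.31 below the 0 min array and within 0.02 of one another. Only the 0 min array stands apart in this gene. The beta subunit Atp5b, which carries the catalytic sites, was above 0 min on all 4, at 6.20, 6.35, 6.37, 6.37 and 6.30. Atp5c1, Atp5d and Atp5e, the central stalk, were at -0.01, 0.17 and -0.10 at 60 min. Atp5o, which joins the head to the outer stalk, had 6.42, 6.50, 6.45, 6.65 and 6.83, and its 45 and 60 min arrays were its highest. The 3 genes of the membrane ring's c subunit, Atp5g1, Atp5g2 and Atp5g3, encode the same mature protein and stood at -0.04, 0.07 and -0.01 at 60 min. Second probes of Atp5g2 and Atp5g3 were at -0.04 and -0.22. Atp5s (Dmac2l), which is no subunit by its description, was 0.40 higher at 60 min and 0.25 to 0.31 higher before it. Atp5i could not be compared, since its spot carried an outlier flag on the 0 and 60 min arrays.

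Ndufs4, an accessory subunit of complex I, was the other member that no array measured well above background. Probes of 1 gene did not always behave alike. Ndufa2 has 2 probes on the minus strand of chromosome 18 that start 22 bases apart, and at 45 min they were at 0.14 and -0.18. Of the 3 probes of Ndufc2, the 2 on the gene's strand were at 0.17 and 0.27 at 45 min, and the dim 1 on the opposite strand was at 1.16. The 2 probes of Ndufa9 were at -0.34 and -0.19 at 60 min. They differed in sign at 30 min (0.19 and -0.05) and at 45 min (0.11 and -0.05). RefSeq names 66 pseudogenes after 31 of the members, 7 of them after Ndufb4, so probes of those genes may also read other copies. Ndufs1, Ndufs7 and Atp5a1 have none, while Ndufa7 has 2, Atp5o has 1 and Sdhd has 1.

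Subunits encoded in mitochondrial DNA were on the arrays as 7 genes with 17 probes, all well above background throughout. At 30 min all 17 probes were above 0, from 0.03 to 0.44, with a median of 0.19, where 55.4% of all genes were above 0 and the 66 nuclear members had a median of 0.05. Set against the control transcripts, whose median change was 0.14, 12 of the 17 would be above 0. At 15, 45 and 60 min their medians were -0.05, 0.09 and 0.03, with 8, 13 and 9 of 17 above 0. Set against the control transcripts, 0, 4 and 1 of 17 would be above 0 at these times. COX3, a core subunit of complex IV, had levels of 4.92, 5.06, 5.35, 5.24 and 4.97 and was highest at 30 min. COX1, the subunit that reduces oxygen, had 5.51, 5.63, 5.83, 5.59 and 5.57, and ATP6, the proton channel subunit of complex V, had 6.35, 6.40, 6.65, 6.54 and 6.48. All 3 were highest on the 30 min array. The 7 probes of COX2 ranged from 0.05 to 0.34 at 30 min and from -0.24 to 0.38 at 60 min, so probes of 1 transcript spread as widely as different genes. The probes share a genome that is transcribed as long joint precursors and are not independent, and the 30 min difference rests on 1 array. By limma, 0 of the 7 genes had a trend, and the lowest adjusted p was 0.74.

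**Figure D5:**
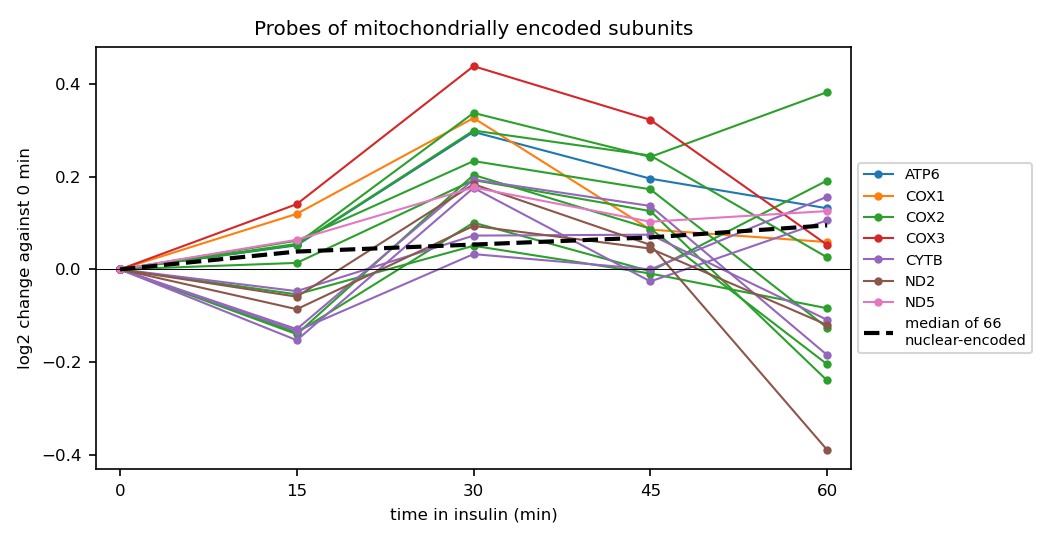
Log2 change against 0 min of the 17 probes of 7 mitochondrially encoded subunits over time in insulin (min), coloured by gene, with the median of the 66 nuclear members dashed. All 17 probes lie above 0 at 30 min (0.03 to 0.44), and they spread from -0.39 to 0.38 at 60 min.

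Genes that work with the chain were read from lists. Of 8 electron carriers and related genes found, 7 were measured, and at 60 min 1 was higher and 1 lower by the threshold, near the 14.0% and 14.1% of all genes. Cycs, somatic cytochrome c, had 5.52, 5.59, 5.51, 5.52 and 6.01, so only the 60 min array was high, at a change of 0.49. Etfdh, which feeds electrons from fatty acid oxidation to ubiquinone, was at 0.31 at 15 min and -0.43 at 60 min. Cyc1, the cytochrome of complex III, had 4.54, 4.29, 4.24, 4.33 and 4.46.

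Of 22 assembly factors outside the name rule, all measured, 4 were higher and 3 lower at 60 min, near the shares of all genes (14.0% and 14.1%). Cox20, a chaperone of COX2, had -1.89, -2.17, -1.56, -1.16 and -1.04, the widest increase of the list at 0.85 (limma unadjusted p = 0.0069, adjusted p = 0.49), and its 30 min array was already higher. Sdhaf1, which serves the iron-sulfur subunit of complex II, was 0.33 higher at 45 min and 0.52 higher at 60 min. Cox18 and Tmem126a were 0.39 and 0.34 higher at 60 min. Taco1, a translation activator of COX1, was at -0.81 at 60 min and within 0.12 of 0 min before it, and Timmdc1, an assembly factor of complex I, was at -0.66 at 60 min and within 0.11 before it. Sdhaf2 was at -0.40. As with the subunits, most of these differences were on the array of slide 2 alone.

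Among 15 regulators of mitochondrial gene expression, 13 were measured, and at 60 min 1 was higher and 1 lower, where 14.0% and 14.1% of all genes were. Pprc1, a coactivator of the PGC-1 family known to respond to serum in cultured cells, had 1.49, 1.43, 1.58, 1.80 and 2.52, a 2-fold change on the 60 min array with the 45 min array already at 0.31 (limma unadjusted p = 0.014, adjusted p = 0.50). Yy1 was 0.51 higher at 15 min and 0.19 higher at 60 min. Gabpb1, a subunit of the ETS factor GABP, was at -0.32 at 60 min and its partner Gabpa at -0.04. Tfam, which packages mitochondrial DNA, had 4.30, 4.01, 4.01, 4.21 and 4.27. Esrra stayed within 0.15 of its 0 min level, and Ppargc1a, the PGC-1 family's best known member in fasting liver, was not well above background on any array. The 13 citric acid cycle enzymes had medians of -0.06, -0.07, -0.07 and 0.08. Of these, 3 were past the threshold at 60 min, all higher, where 14.0% of all genes were higher and 14.1% lower: Idh3b (0.51), Cs (0.40) and Dld (0.34). By limma, 0 genes of these lists had a trend with an adjusted p under 0.05.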

How the data were processed

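Intensity was read from the deposited scanner files, made with Agilent Feature Extraction 9.5.3.1 per the file headers, as the background-subtracted and trend-corrected processed signal. The deposited series matrix holds log2 values centred on each probe, and no source used here records how it was made. Control and outlier spots were left out, spots of a probe averaged, signals divided by the array's 75th percentile, and values under the lowest signal well above background set to it before log2. A gene was its brightest probe, and a change needs both arrays well above background. Thresholds were 0.322 log2 units and 2-fold. Trends were fitted with limma 3.58.1 (R 4.3.3) on genes that 1 or more arrays measured well above background, setting 1 common floor, Benjamini-Hochberg adjustment at 0.05, and checked on simulated data. Python 3.11.15, numpy 2.4.6 and pandas 2.3.3 were used. Symbols were updated through RefSeq (GRCr8), and probe coordinates are those of the files (rn4).

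The members, lists and tests were chosen with earlier results of these data known. Named members are the 3 largest increases and decreases at each time, the lowest trend p-values, those with the most unlike probes, those never measured, and a fixed set of core subunits and isoforms; Atp5i, Ndufaf1, Ndufb4, Ndufb6, Ndufb8, Ndufb11 and Ndufa6, all list genes outside the members, and the promoters shown were chosen after their values were seen. Groups follow the times that the labels state. Alternatives were normexp background, other scalings, the series matrix, other filters, probes and references, and arrays left out of the trend in turn. 1 member counted in the totals is not reported by name here.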

Additional observations from a re-analysis of the deposited data

How the results depend on the processing

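No paired analysis was possible because each time has 1 array and the labels give no replicate numbers. The number of arrays limits precision. The trend gave 0 members in every alternative run, each array left out in turn included (0 to 0). Over all alternatives the members' median change ran from -0.63 to 0.04 at 15 min, from -0.003 to 0.06 at 30 min, from 0.008 to 0.08 at 45 min and from 0.04 to 0.14 at 60 min. The low end at 15 min is normexp background (offset 50), which gave -0.62, -0.74, -0.60, -0.59 and -0.70 for complexes I, II, III, IV and V, 2 members higher and 57 lower by the threshold, 2 higher and 1 lower by 2-fold, and turned Ndufs7 to -0.30. When 6 spots with a local background above 500 were left out before the fit, an alternative chosen after seeing the data, the median at 15 min was 0.01, Ndufs7 was at 0.35 and 1 member was lower.

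Counts past the threshold moved as follows. At 30 min, normexp with and without those spots and the percentile over detected probes each gave 1 higher and 2 lower; quantile normalization gave 2 lower, no filter 5 higher, the mean over probes 1 lower, and the 15 min reference and subunits only 1 higher. At 45 min, both normexp fits gave 2 lower, the detected percentile and quantile normalization 1 lower, and no filter and the mean over probes 1 higher. At 60 min, both normexp fits gave 17 higher; quantile normalization gave 6 higher and 4 lower, the detected percentile and no filter 4 lower, the mean over probes 1 lower and the 15 min reference 6 lower. The cause was not tested. Ndufs1 at 60 min lay between -0.80 and -0.69 in all alternatives run, and Ndufa7 between 0.29 (15 min reference) and 0.52. Leaving out probes on the opposite strand gave members' medians of 0.04, 0.05, 0.07 and 0.10. With its flagged spots kept, Atp5i was 0.42 higher at 60 min.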
